A study of Mus musculus with 12 samples.

Results

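The interaction of C13 with TDP-43 aggregates was examined in SIM-A9, a microglial cell line derived from C57BL/6 mice. It asks whether the response of a gene to C13 differed between cells given aggregates and cells given a sham preparation. C13 is a compound that the series title names as an inhibitor of the kinase MOK. All 12 libraries of the series entered, 3 in each of 4 groups, and every gene that passed a filter on low counts was tested. Every culture first received 10 µM polymyxin B, which neutralises bacterial endotoxin, for 1 h in serum-free medium. C13 with TDP-43 was then given 10 µM C13 over 1 h, followed by aggregates of TDP-43 at 5 µg/mL. DMSO with TDP-43 received the solvent DMSO and the same aggregates. C13 with sham received 10 µM C13 and 5 µg/mL of sham aggregates, and DMSO with sham received DMSO and sham aggregates. After 2.5 h all cells received 100 µM 4-thiouridine for 90 min, so that aggregates were present for 4 h in total. The labels call the libraries biological replicates and name no separate culture or day, so p-values measure the spread between these libraries. Only 1 line, 1 dose and 1 time were used.

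TDP-43 is an RNA-binding protein that leaves the nucleus and aggregates in motor neuron disease and frontotemporal dementia. Microglia, the resident macrophages of the brain, take up such aggregates and sense them through receptors that switch on NF-kB and interferon signalling. MOK is a serine/threonine kinase related to the MAP kinases. Treatments interact when the change made by the one depends on the other, which a comparison within either arm alone does not show.

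The interaction of a gene was the log2 fold change of C13 over DMSO with TDP-43 minus that of C13 over DMSO with sham. A positive value therefore means that the C13 effect was higher with aggregates than with sham. The assay was SLAM-seq, in which RNA made during the thiouridine pulse carries base changes and is counted as nascent, while total RNA takes in all reads. Reads mark mRNA 3′ ends. Libraries held 17436397 to 41779882 total reads, and 552042 to 2722812 of these were nascent. Levels are given as CPM, a gene's count as a share of TMM-scaled library size, per library in the order of the replicate numbers.

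The label of the cells was first set against marker genes. Of 15 microglial and myeloid markers, 13 reached 1 CPM on average, while Sall1 and Tmem119 did not. Among the 13, P2ry12 was uneven, at 0 to 436 total reads per library. These marker levels were CPM without TMM scaling. The summed level of all 15 was 3000 to 3330 CPM in C13 with TDP-43, against 2800 to 3210 CPM in DMSO with TDP-43. With sham it was 2930 to 3580 CPM under C13, against 2920 to 3200 CPM under DMSO. No marker of astrocytes, of neurons, or of fibroblasts and endothelium reached 1 CPM, and of 6 oligodendrocyte markers only Mbp did. On the first principal component of total RNA, with 16.2% of the variance, DMSO with TDP-43 replicate 3 and C13 with sham replicate 3 lay apart, at 91.7 and 93.3 against -31.0 to -1.73 for the other 10. Both belong to groups that enter the interaction with a negative sign, so several results below are also given without them. In bulk RNA, fewer cells of a state and less RNA per cell cannot be told apart.

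No single gene passed for the interaction in either table. In total RNA edgeR's quasi-likelihood test with Benjamini-Hochberg adjustment called 0 of 11827 genes (0% of those tested), and the smallest adjusted p was 0.0741. In nascent RNA it called 0 of 7078 (0%), with a smallest adjusted p of 0.445. At an unadjusted p under 0.05, which is used below only to describe, there were 941 genes in total RNA (7.96%), 584 with a positive interaction (4.94%) and 357 with a negative (3.02%). In nascent RNA there were 537 (7.59%), 328 positive (4.63%) and 209 negative (2.95%). DESeq2 called 108 genes in total RNA (0.913%), 90 positive (0.761%) and 18 negative (0.152%). In nascent RNA it called 46 (0.65%), 34 positive (0.48%) and 12 negative (0.17%). Its calls of smallest p in total RNA included 2 genes carried by 1 library, named here for that reason. 4930563E22Rik had 161 of 206 reads in C13 with TDP-43 replicate 1 (adjusted p = 1.98e-06 by DESeq2 and 0.483 by edgeR). Mmp15 had 161 of 211 in C13 with sham replicate 3 (adjusted p = 5.08e-06 by DESeq2 and 0.442 by edgeR). Without the 2 libraries that lay apart edgeR again called 0 genes in each table, with 681 positive and 281 negative genes at an unadjusted p under 0.05 in total RNA and 457 and 118 in nascent RNA.

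The 4 group means behind these genes formed a crossed pattern. Of the 584 positive genes in total RNA, 556 were higher with C13 in the aggregate arm and lower with C13 in the sham arm, a pattern that 27.3% of all tested genes had. Of the 357 negative genes, 347 had the reverse, against 26.9% of all genes. Choosing genes by the difference of the 2 C13 effects favours opposite signs, so these shares describe the genes and are no test. The median C13 effect of the positive genes was 0.70 on the log2 scale with aggregates and -0.73 with sham, and of the negative genes -0.64 with aggregates and 0.60 with sham. Within arms, C13 was higher than DMSO at an unadjusted p under 0.05 in 411 genes with aggregates (3.48%) and lower in 296 (2.5%), and with sham it was higher in 243 (2.05%) and lower in 478 (4.04%). The group farthest from the mean of the other 3 was most often C13 with sham for positive genes (211 of 584, 36.1%). That share was near the 33.1% of all genes. C13 with TDP-43 was farthest in 167 of the 584, against 2621 of all 11827 genes. For negative genes C13 with TDP-43 was farthest in 115 of 357 and C13 with sham in 109 (30.5%). All 6 libraries of C13 with TDP-43 and DMSO with sham lay above all 6 of the other groups in 48 genes (0.406%) and below them in 27 (0.228%). Of the 584 positive genes, 91 had 0 reads in all libraries of C13 with sham, against 241 of all 11827 genes. For DMSO with TDP-43 this held for 55, against 129 of all genes. Of the 357 negative genes, 16 had 0 reads in C13 with TDP-43 and 13 in DMSO with sham, against 79 and 51 of all genes.

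**Figure D1:**
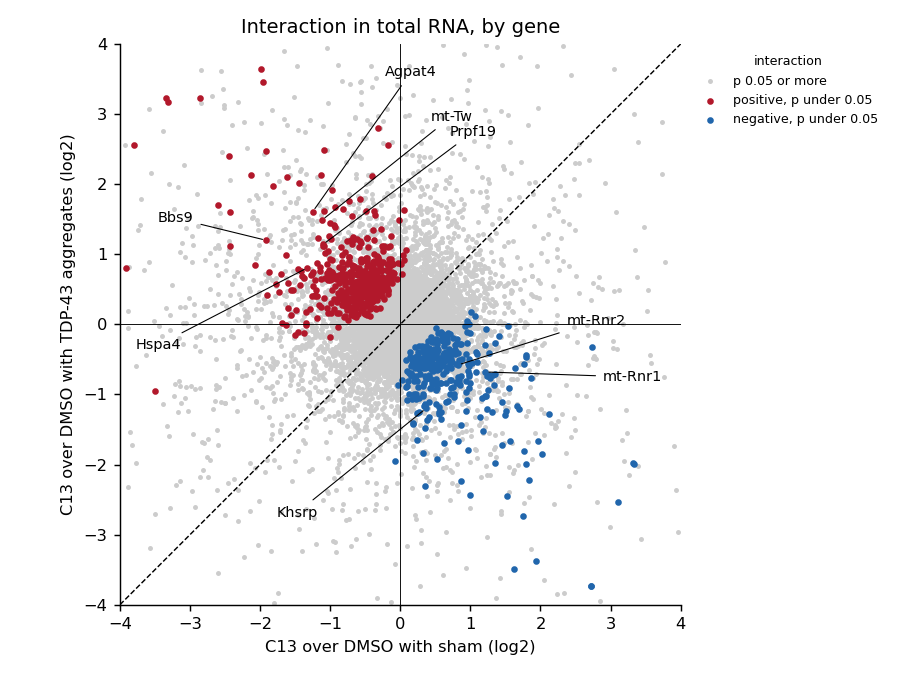
Each point is a gene of total RNA, with its log2 fold change of C13 over DMSO in the aggregate arm (vertical) against that in the sham arm (horizontal). The 584 positive and 357 negative genes at an unadjusted p under 0.05 lie mostly in opposite quadrants, to which the choice by the difference of the axes contributes; 531 of 11827 genes fall outside the axes, and the dashed line marks equal effects.

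Among the positive genes of total RNA, Prpf19 had the smallest p. It encodes the ubiquitin ligase at the core of the Prp19 complex of the spliceosome (GRCm38, chromosome 19, 10895231 to 10909559, plus strand). Prpf19 stood at 901, 1137 and 1074 CPM in C13 with TDP-43, against 556, 391 and 464 CPM in DMSO with TDP-43. With sham, C13 libraries stood at 376, 281 and 367 CPM, against 933, 451 and 816 CPM in DMSO with sham. C13 with TDP-43 lay above DMSO with TDP-43 in every library and C13 with sham below DMSO with sham in every library. The interaction was 2.24 (SE 0.35, edgeR adjusted p = 0.0741), made of a C13 effect of 1.14 with aggregates and -1.10 with sham. Left-out libraries moved it between 2.03 and 2.50, and it passed without DMSO with sham replicate 2 (edgeR adjusted p = 0.00588). It also passed under DESeq2 (adjusted p = 1.98e-06), and over all alternatives its adjusted p ran from 1.62e-07, with no filter on low counts, to 0.281, without DMSO with sham replicate 1.

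Agpat4, an acyltransferase of phospholipid synthesis, had the same form. It stood at 386, 334 and 235 CPM in C13 with TDP-43, against 136, 78.6 and 98.4 CPM in DMSO with TDP-43. With sham it stood at 56.0, 102 and 91.0 CPM under C13, against 232, 101 and 259 CPM under DMSO, so that the sham groups overlapped by 1 library of DMSO. The interaction was 2.86 (SE 0.48, edgeR adjusted p = 0.102). Bbs9, a subunit of the BBSome that carries proteins into cilia, stood at 72.3, 124 and 85.6 CPM in C13 with TDP-43, against 60.6, 22.5 and 39.7 CPM in DMSO with TDP-43. It stood at 20.6, 11.3 and 39.2 CPM in C13 with sham, against 86.4, 87.1 and 95.7 CPM in DMSO with sham. In Bbs9 neither pair of groups overlapped, and the interaction was 3.12 (SE 0.58, edgeR adjusted p = 0.132), with a C13 effect of 1.20 with aggregates and -1.92 with sham. All 24 counts of Bbs9 were multiples of 4, for an unstated reason.

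Pabpn1, the nuclear poly(A)-binding protein, had an interaction of 1.74 (SE 0.32), and Exosc8, a subunit of the RNA exosome, one of 1.92 (SE 0.37). Exosc8 stood at 190, 109 and 109 CPM in C13 with TDP-43, against 65.5, 54.7 and 51.0 CPM in DMSO with TDP-43, and at 82.9, 79.7 and 73.0 CPM in C13 with sham, against 162, 122 and 91.7 CPM in DMSO with sham. Neither higher group overlapped a lower one. Ube2m, which conjugates the ubiquitin-like protein NEDD8, had an interaction of 1.99 (SE 0.35), and Ywhae, a 14-3-3 adaptor protein, one of 1.36 (SE 0.27). Arl3, a small GTPase of cilia, had 1.42 (SE 0.28), and Frrs1, a ferric reductase, had 1.26 (SE 0.24). Frrs1 stood at 374, 401 and 309 CPM in C13 with TDP-43, against 254, 230 and 241 CPM in DMSO with TDP-43. With sham, C13 libraries of Frrs1 stood at 231, 227 and 220 CPM, against 368, 393 and 324 CPM in DMSO with sham. The edgeR adjusted p of these 6 genes ran from 0.114 for Ube2m to 0.132 for the other 5. Ube2m, Exosc8, Arl3, Frrs1 and Ywhae also had all 6 libraries above all 6. Agpat4 and Pabpn1 overlap another gene on their strand, and Bbs9, Exosc8 and Ywhae overlap genes on the other strand. The strand setting of the counting is not given in the sources used here, so these counts are uncertain.

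**Figure D2:**
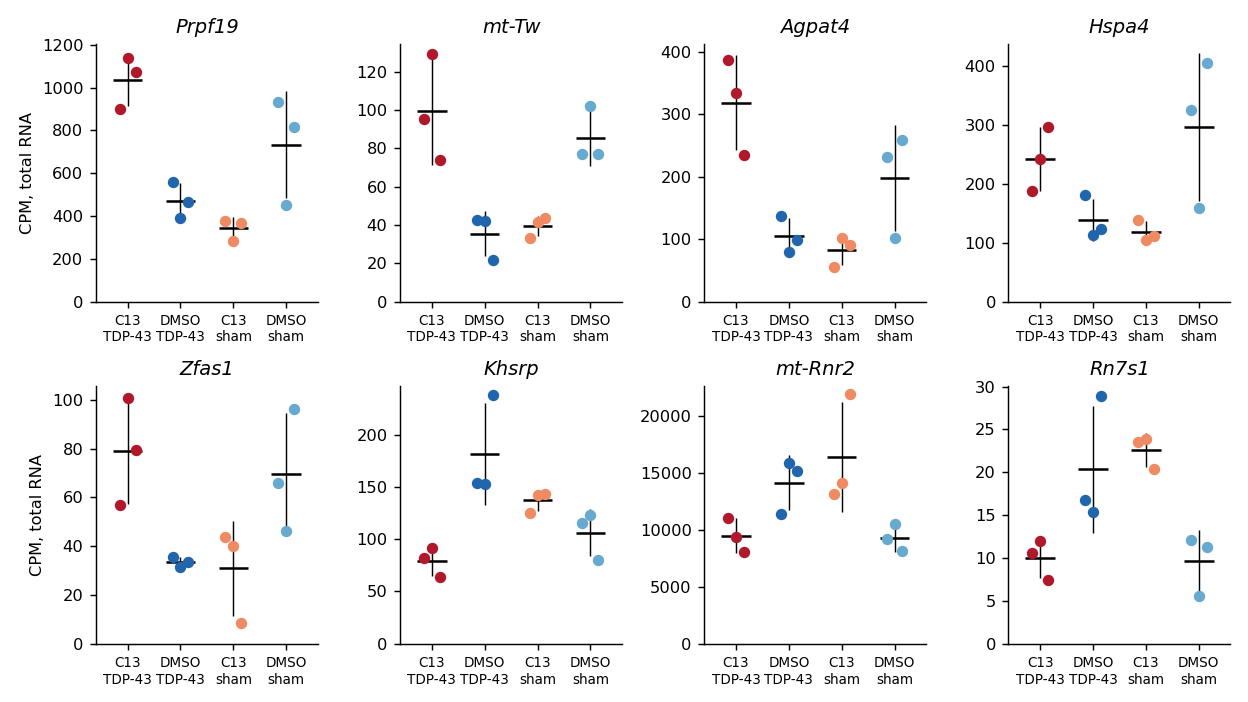
CPM in total RNA of 8 genes, with 1 point per library, the group mean as a horizontal bar and 1 SD as a vertical line (n = 3 per group). Prpf19, mt-Tw, Agpat4, Hspa4 and Zfas1 stand higher in C13 with TDP-43 and DMSO with sham, and Khsrp, mt-Rnr2 and Rn7s1 stand lower there, with interactions of 2.24 for Prpf19 and -1.57 for Khsrp.

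Negative genes were led by Khsrp, an RNA-binding protein that promotes decay of mRNAs with AU-rich elements, many of them cytokine mRNAs (GRCm38, chromosome 17, 57021051 to 57031522, minus strand). Khsrp stood at 81.8, 91.7 and 63.7 CPM in C13 with TDP-43, against 154, 153 and 238 CPM in DMSO with TDP-43. It stood at 125, 143 and 144 CPM in C13 with sham, against 116, 123 and 80.4 CPM in DMSO with sham. In both arms the C13 and DMSO libraries did not overlap, and the interaction was -1.57 (SE 0.33, edgeR adjusted p = 0.183), mostly from the aggregate arm at -1.20 against 0.37 with sham. Rn7s1, the RNA scaffold of the signal recognition particle, stood at 10.6, 12.02 and 7.48 CPM in C13 with TDP-43, against 16.7, 15.4 and 28.9 CPM in DMSO with TDP-43. It stood at 23.6, 23.9 and 20.4 CPM in C13 with sham, against 12.1, 5.58 and 11.3 CPM in DMSO with sham. All 6 libraries of C13 with TDP-43 and DMSO with sham lay below the other 6, with an interaction of -2.25 (SE 0.54, edgeR adjusted p = 0.241). Rn7s1 has near-identical copies and overlaps 2 genes on its strand, which makes this count uncertain.

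The remaining negative genes had edgeR adjusted p-values of 0.188 to 0.31. Pank1, a kinase of coenzyme A synthesis, had an interaction of -1.29 (SE 0.31) and Fgf11, a growth factor family member kept inside the cell, one of -1.48 (SE 0.36), each with all 6 libraries below all 6. Suz12, a core subunit of Polycomb repressive complex 2, had -1.31 (SE 0.34) and Pex6, an ATPase of peroxisome import, had -1.76 (SE 0.46). Pih1d1, part of the R2TP co-chaperone of HSP90, had -2.20 (SE 0.54). Mir6240, annotated as a microRNA gene and here read from a 3′ mRNA library, had 0.348 to 10.2 CPM and an interaction of -5.33 (SE 1.18). In all of them the highest group mean was that of C13 with sham or of DMSO with TDP-43.

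Transcripts of the mitochondrial genome differed in sign. Mitochondrial DNA is read as long transcripts in which tRNAs separate the ribosomal and protein-coding RNAs, and the ribosomal RNAs mt-Rnr1 and mt-Rnr2 are its most abundant products. The tryptophan tRNA mt-Tw (GRCm38, chromosome M, 4950 to 5016, plus strand) had the second smallest p of total RNA. Its sequence in the GRCm38 reference is shown since a tRNA is an unusual target for mRNA 3′ libraries, with the anticodon in capitals.
mt-Tw: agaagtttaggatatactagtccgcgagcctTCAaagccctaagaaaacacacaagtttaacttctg
mt-Tw stood at 95.1, 129 and 73.6 CPM in C13 with TDP-43, against 42.4, 42.0 and 21.7 CPM in DMSO with TDP-43. It stood at 33.2, 41.6 and 43.32 CPM in C13 with sham, against 77.1, 102 and 76.9 CPM in DMSO with sham. Every library of C13 with TDP-43 and DMSO with sham lay above the other 6, and the interaction was 2.60 (SE 0.41, edgeR adjusted p = 0.0741), with adjusted p from 2.13e-07 to 0.281 over the alternatives. In nascent RNA mt-Tw had an interaction of 2.04 (SE 0.69, edgeR adjusted p = 0.535). An annotated gene on the same strand overlaps mt-Tw, which makes this count uncertain.

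The mitochondrial ribosomal RNAs had the opposite sign to mt-Tw. Both together took 1.51%, 1.54% and 1.29% of total reads in C13 with TDP-43, against 1.71%, 2.52% and 2.47% in DMSO with TDP-43. They took 1.80%, 2.37% and 3.70% in C13 with sham, against 1.17%, 1.49% and 1.31% in DMSO with sham. Every library of C13 with TDP-43 and DMSO with sham lay below every library of the other groups. With aggregates the mean was 1.45% ± 0.139 under C13, against 2.23% ± 0.453 under DMSO, and with sham it was 2.62% ± 0.972 under C13, against 1.32% ± 0.160 under DMSO (SD, n = 3 each). The interaction was -2.09 percentage points (two-sided exact permutation test over 369600 arrangements, p = 0.00216, and 0.00324 adjusted over 3 tests of shares), against a null of no difference among the 4 groups. Without the 2 libraries that lay apart it was -1.43 points (exact permutation p = 0.00476). mt-Rnr2 had an interaction of -1.40 (SE 0.31, edgeR adjusted p = 0.187) and mt-Rnr1 one of -1.89 (SE 0.46, edgeR adjusted p = 0.244). Of 16 tested genes of the mitochondrial genome 5 were positive, with a median of -0.37 against 0.01 for all genes. The median was -0.16 without C13 with sham replicate 3 and -0.24 without both libraries apart. Below an unadjusted p of 0.05 were mt-Tw and, outside the rule for named genes, mt-Th with a positive sign, and the 2 ribosomal RNAs with a negative sign.

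**Figure D3:**
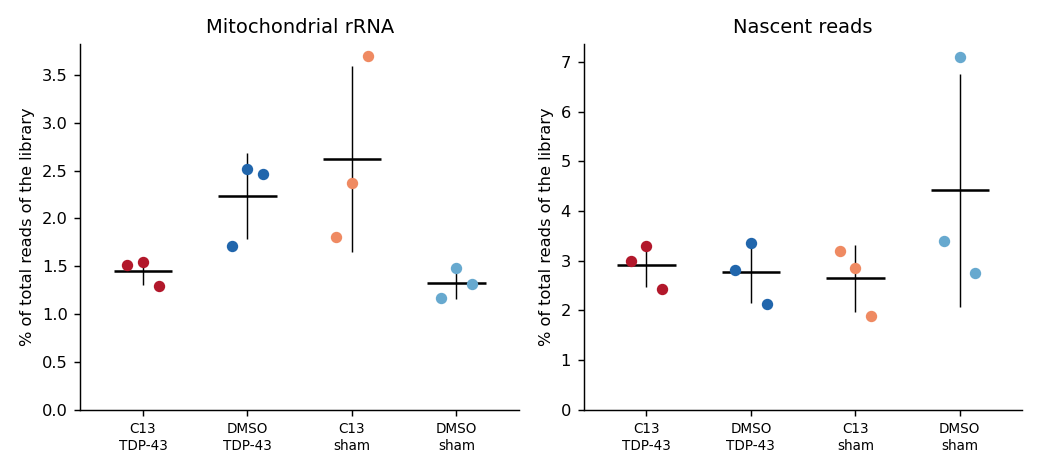
Share of a library's total reads that were mitochondrial ribosomal RNA (left) and nascent (right), with 1 point per library, the group mean and 1 SD (n = 3 per group). Mitochondrial ribosomal RNA was at 1.17% to 1.54% in C13 with TDP-43 and DMSO with sham and at 1.71% to 3.70% in the other groups, while the nascent shares of the groups overlapped.

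Genes were next described by lists, beside the same counts over all tested genes, of which 50.7% were positive in total RNA with a median interaction of 0.01. Type I interferon effectors, the antiviral genes that cells switch on in answer to interferon, had 30 of 43 tested members positive and a median of 0.45. At an unadjusted p under 0.05, 5 were positive (11.6%, against 4.94% of all genes) and 0 negative (against 3.02%), and edgeR called 0 (smallest adjusted p = 0.478). Without DMSO with TDP-43 replicate 1 the median was 0.84. The 5 were Adar, Eif2ak2, Isg15, Cxcl10 and Ifit3b, the last of which falls outside the rule for named genes and was picked with its values in view. The median over members of log2(CPM + 0.5), relative to each gene's mean of all libraries, was 0.32, 0.41 and 0.46 in C13 with TDP-43, against 0.29, 0.03 and -0.02 in DMSO with TDP-43. It was -0.20, -0.24 and -0.76 in C13 with sham, against -0.09, -0.12 and -0.13 in DMSO with sham. Thus C13 with TDP-43 held the highest 3 libraries and C13 with sham the lowest 3. The median C13 effect was 0.32 with aggregates and -0.11 with sham.

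Isg15, a ubiquitin-like protein joined to other proteins during antiviral defence, stood at 72.4, 65.8 and 39.3 CPM in C13 with TDP-43, against 46.9, 27.9 and 26.8 CPM in DMSO with TDP-43. It stood at 29.2, 20.1 and 7.03 CPM in C13 with sham, against 27.9, 43.9 and 27.2 CPM in DMSO with sham. Each pair of groups overlapped by 1 library or more, and the interaction was 1.63 (SE 0.61, edgeR adjusted p = 0.485), or 1.10 without the 2 libraries apart. Cxcl10, a chemokine that draws T cells, stood at 22.7, 44.1 and 68.9 CPM in C13 with TDP-43, against 32.1, 27.4 and 48.9 CPM in DMSO with TDP-43. It stood at 13.3, 6.15 and 11.2 CPM in C13 with sham, against 16.7, 19.6 and 20.7 CPM in DMSO with sham. Only the sham groups were separate, and the interaction was 1.22 (SE 0.55, edgeR adjusted p = 0.603). Eif2ak2, the double-stranded RNA sensor PKR, had 1.22 (SE 0.44) and Adar, which edits adenosine in double-stranded RNA, had 1.05 (SE 0.37). Rsad2, the antiviral enzyme viperin, had 0.48 (SE 0.36).

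Promoters of the interferon list were searched for the core of the interferon-stimulated response element, the letters GAAANNGAAA on either strand, to which IRF factors bind. In RefSeq promoters of GRCm38.p6, 250 bases before to 50 after the start, 22 of 38 list genes with an entry held a match, against 1079 of 27025 genes (3.99%) and 1131 of 32851 promoters (3.44%). The promoters of Isg15 (chr4:156200769-156201068, minus strand) and Cxcl10 (chr5:92348840-92349139, minus strand) are shown because their levels in every library are given above, with matches in capitals.
Isg15: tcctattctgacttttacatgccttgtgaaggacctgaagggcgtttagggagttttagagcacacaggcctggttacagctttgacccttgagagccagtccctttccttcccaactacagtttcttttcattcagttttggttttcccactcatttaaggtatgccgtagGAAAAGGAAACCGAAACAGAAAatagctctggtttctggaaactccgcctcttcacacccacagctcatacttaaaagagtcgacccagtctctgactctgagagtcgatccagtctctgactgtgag
Cxcl10: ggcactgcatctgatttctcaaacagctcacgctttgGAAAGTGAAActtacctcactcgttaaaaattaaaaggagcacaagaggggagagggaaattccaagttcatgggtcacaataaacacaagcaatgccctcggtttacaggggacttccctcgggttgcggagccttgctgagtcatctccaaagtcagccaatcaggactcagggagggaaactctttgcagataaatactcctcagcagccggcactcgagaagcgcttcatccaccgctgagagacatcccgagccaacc
In Isg15 3 overlapping matches start 78, 72 and 66 bases before the start, and in Cxcl10 1 match starts 213 bases before it. A match describes letters in the window, and binding was not measured.

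Heat shock proteins, the chaperones that refold damaged proteins, had 20 of 27 tested members positive in total RNA, with a median of 0.37. At an unadjusted p under 0.05, 5 were positive (18.5%, against 4.94% of all genes) and 0 negative. Hspa4, an HSP110 nucleotide exchange factor that helps HSP70 take aggregates apart, stood at 187, 241 and 296 CPM in C13 with TDP-43, against 180, 112 and 122 CPM in DMSO with TDP-43. It stood at 139, 104 and 111 CPM in C13 with sham, against 324, 158 and 404 CPM in DMSO with sham. C13 was above DMSO in every library with aggregates and below it in every library with sham, with an interaction of 2.13 (SE 0.43, edgeR adjusted p = 0.132). Without DMSO with sham replicate 2 the interaction of Hspa4 was called, at 2.44 (edgeR adjusted p = 0.0272). With 1 library left out it ran from 1.86 to 2.44, with an edgeR adjusted p of up to 0.481. Without the 2 libraries apart it was 2.03 (edgeR adjusted p = 0.341). In nascent RNA the interaction of Hspa4 was 1.28, with an edgeR adjusted p of 0.671 to 0.965 with 1 library left out. Bag3, a co-chaperone that steers misfolded proteins to autophagy, stood at 53.8, 66.6 and 72.8 CPM in C13 with TDP-43, against 33.4, 35.4 and 31.6 CPM in DMSO with TDP-43. It stood at 29.3, 36.1 and 47.2 CPM in C13 with sham, against 73.2, 31.5 and 54.1 CPM in DMSO with sham, where the groups overlapped. The interaction of Bag3 was 1.44 (SE 0.42) and that of Hspd1, the mitochondrial chaperonin HSP60, 0.76 (SE 0.26). The other two members were Dnaja1 and Dnajb6, HSP40 co-chaperones outside the rule for named genes, at 0.80 and 0.59. The median of the list was 0.19 without DMSO with sham replicate 3.

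Hosts of small nucleolar RNAs and related noncoding RNAs had 9 of 11 members positive and the highest median of the lists drawn below, 0.63. Zfas1, which hosts small nucleolar RNAs in its introns, stood at 57.0, 101 and 79.5 CPM in C13 with TDP-43, against 35.7, 31.4 and 33.4 CPM in DMSO with TDP-43. It stood at 43.9, 40.05 and 8.60 CPM in C13 with sham, against 65.8, 46.2 and 96.3 CPM in DMSO with sham. All 6 libraries of C13 with TDP-43 and DMSO with sham lay above the other 6, and the interaction was 2.41 (SE 0.64, edgeR adjusted p = 0.313). Snhg1, another such host, had 1.47 (SE 0.42) with a C13 effect of 0.38 with aggregates and -1.09 with sham. Epb41l4aos had 1.03 (SE 0.50). C13 with sham replicate 3, a library that lay apart, was lowest for Zfas1, Snhg1 and Epb41l4aos, and without both such libraries the median of the list was 0.56. It was 0.37 without DMSO with TDP-43 replicate 3. Zfas1 overlaps 4 genes on its strand and Snhg1 8, so their counts are uncertain.

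Ribosome biogenesis genes had a median of 0.03, near that of all genes, with 5 of 48 positive at an unadjusted p under 0.05 (10.4%, against 4.94% of all genes) and 0 negative (against 3.02%). Ncl, nucleolin, which coats nascent ribosomal RNA in the nucleolus, stood at 1663, 1226 and 1560 CPM in C13 with TDP-43, against 1005, 742 and 1058 CPM in DMSO with TDP-43. It stood at 909, 867 and 734 CPM in C13 with sham, against 1804, 1153 and 1442 CPM in DMSO with sham. All 6 libraries lay above all 6, with an interaction of 1.47 (SE 0.30, edgeR adjusted p = 0.132). Ddx18, a helicase of the large subunit, had 1.78 (SE 0.52), also with all 6 above all 6, and Nop56, a core protein of C/D small nucleolar particles, had 1.24 (SE 0.45). The other two, outside the rule for named genes, were Bms1 at 0.56 and Tsr1 at 0.84. Ncl and Nop56 overlap 4 and 5 genes on their strand, so their counts are uncertain. The median of the list took the other sign in 10 of 19 settings.

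Subunits of the respiratory chain encoded in the nucleus had 46 of 78 members positive and a median of 0.14. Of these, 10 were positive in total RNA (12.8%, against 4.94% of all genes) at an unadjusted p under 0.05, and 0 were negative (against 3.02%). Ndufb3, a subunit of complex I, stood at 836, 1029 and 864 CPM in C13 with TDP-43, against 759, 450 and 560 CPM in DMSO with TDP-43. It stood at 648, 476 and 360 CPM in C13 with sham, against 909, 744 and 915 CPM in DMSO with sham. Each C13 group was apart from its DMSO group, in opposite directions, and the interaction was 1.42 (SE 0.33, edgeR adjusted p = 0.235). Ndufa5 and Ndufb2, also of complex I, had 1.42 (SE 0.41) and 2.70 (SE 0.80). Ndufb2 overlaps another gene on its strand. The median of the list was -0.02 without C13 with sham replicate 3 and -0.02 without both libraries apart.

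Immediate-early genes, transcription factors and signalling genes switched on within minutes of a stimulus, had 6 of 23 members positive and a median of -0.43, with 0 positive (against 4.94% of all genes) and 1 negative (4.35%, against 3.02%) at an unadjusted p under 0.05. That gene was Csrnp1, a transcription factor, which stood at 2.41, 2.35 and 0.464 CPM in C13 with TDP-43, against 6.00, 5.51 and 14.3 CPM in DMSO with TDP-43. It stood at 1.27, 4.89 and 4.32 CPM in C13 with sham, against 2.53, 2.76 and 2.95 CPM in DMSO with sham. The aggregate groups were separate and the sham groups overlapped, with an interaction of -2.65 (SE 1.06, edgeR adjusted p = 0.52). Junb, an AP-1 subunit, had -1.10 (SE 0.59), or -0.28 without the 2 libraries apart, and the median of the list was then -0.04, while it was -0.75 without C13 with sham replicate 1 and -0.03 without C13 with sham replicate 3. ATF4 targets, which supply amino acids under stress, had 6 of 24 positive, a median of -0.22 and 0 members at an unadjusted p under 0.05 in either direction. Slc3a2, Trib3 and Gdf15 of that list had -0.53 (SE 0.27), -1.23 (SE 0.65) and -0.71 (SE 0.38). Trib3 was at -0.60 without the 2 libraries apart, and the median of the list was -0.09 without DMSO with TDP-43 replicate 2.

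Feedback genes of ERK signalling were split. Spred1, an inhibitor of RAS and RAF, stood at 61.1, 85.6 and 85.2 CPM in C13 with TDP-43, against 105, 95.6 and 107 CPM in DMSO with TDP-43. It stood at 83.2, 82.3 and 124 CPM in C13 with sham, against 67.4, 70.4 and 67.6 CPM in DMSO with sham. C13 lay below DMSO in every library with aggregates and above it in every library with sham, with an interaction of -0.90 (SE 0.31, edgeR adjusted p = 0.47). Dusp5, a nuclear ERK phosphatase, had -1.64 (SE 0.73), while Dusp16, a phosphatase of JNK and p38, had 1.14 (SE 0.41). Of 20 tested members 9 were positive, with 1 positive (against 4.94% of all genes) and 3 negative (against 3.02%) at an unadjusted p under 0.05, the third being Spred2, which falls outside the rule for named genes. Among MAP kinases and their partners 12 of 27 were positive, with Mapkapk5 at 1.30 (SE 0.40), Braf at -1.27 (SE 0.52) and Mapkapk3 at -0.64 (SE 0.33).

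**Figure D4:**
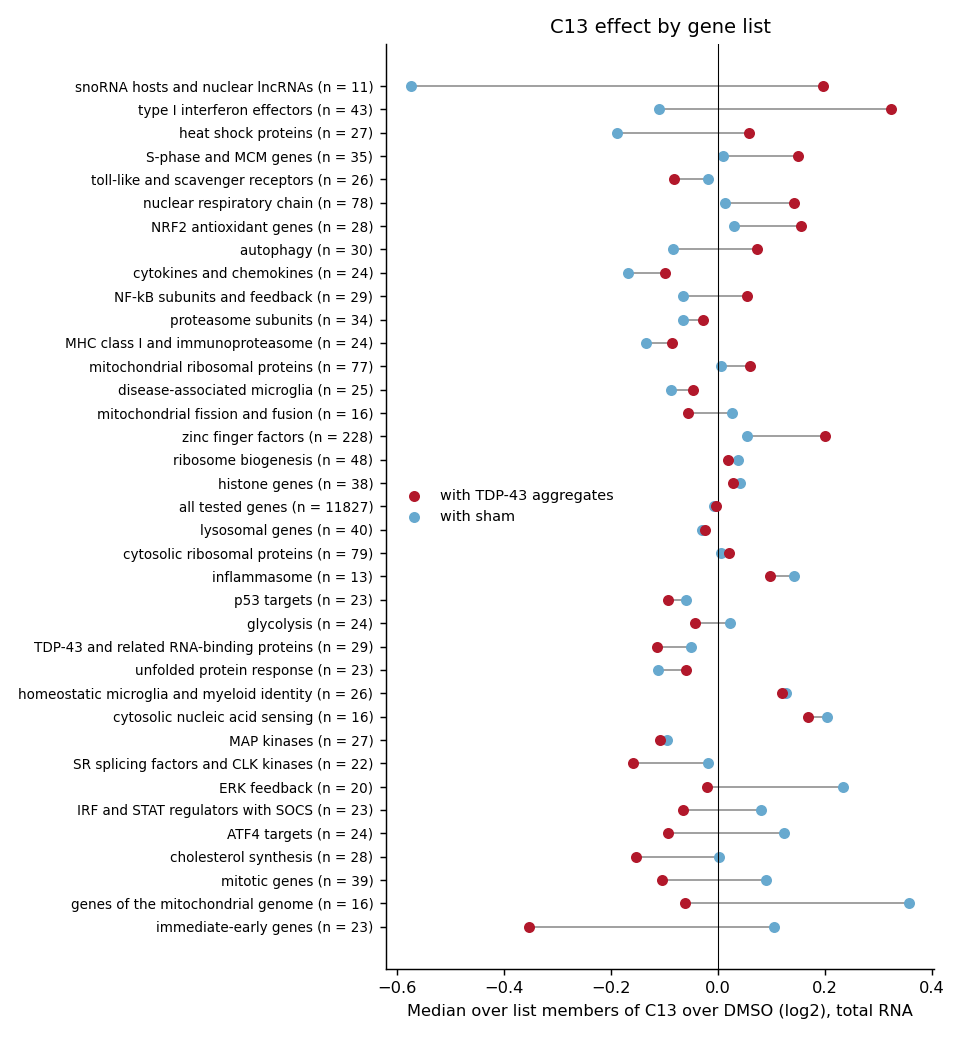
Median over the tested members of each gene list of the log2 fold change of C13 over DMSO in total RNA, with TDP-43 aggregates and with sham, sorted by the median interaction. The medians of interferon effectors are 0.32 with aggregates and -0.11 with sham, those of immediate-early genes are -0.35 and 0.11, and those of all tested genes lie next to 0 in both arms.

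Inflammatory mediators showed no common direction. Of cytokines and chemokines 13 of 24 were positive, with a median of 0.13. Tnf, the gene of tumour necrosis factor, stood at 73.5, 102 and 86.3 CPM in C13 with TDP-43, against 56.5, 73.1 and 60.4 CPM in DMSO with TDP-43. It stood at 38.2, 69.0 and 41.2 CPM in C13 with sham, against 68.5, 55.8 and 73.4 CPM in DMSO with sham. The aggregate groups were separate and the sham groups overlapped by 1 library, with an interaction of 0.87 (SE 0.36, edgeR adjusted p = 0.54) in total RNA and 0.10 (SE 0.74) in nascent RNA, where it was 0.79 without the 2 libraries apart. Il1b, interleukin 1 beta, had 0.44 (SE 0.43) in total RNA. The chemokines Cxcl2, Ccl4 and Ccl5 had -0.17 (SE 0.36), -0.70 (SE 0.50) and -0.38 (SE 0.75), and Nos2, the inducible nitric oxide synthase, had 0.92 (SE 1.32). Il27 had 0 CPM in all libraries of DMSO with sham and at most 2.19 CPM elsewhere, and no fold is given. Il6 and Ifnb1 did not pass the filter. Of NF-kB subunits and feedback genes 18 of 29 were positive, led by Bcl2a1b, an anti-apoptotic gene, at 1.29 (SE 0.38) and Traf1, an adaptor of TNF receptors, at 0.60 (SE 0.27). Bcl2a1b has near-identical copies, so its count is uncertain.

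The target of C13 and the aggregated protein were looked at in the same way. Mok was low, at 1.53, 8.22 and 1.33 CPM in C13 with TDP-43 and 7.73, 0.988 and 2.05 CPM in DMSO with TDP-43. With sham, C13 libraries of Mok had 0, 10.7 and 0.965 CPM, against 1.39, 0.162 and 3.42 CPM in DMSO with sham. The groups overlapped, and the interaction of -1.17 (SE 2.04) ranged from -2.54 to 1.78 with 1 library left out. Tardbp, the gene of TDP-43, stood at 803, 814 and 1006 CPM in C13 with TDP-43, against 913, 781 and 666 CPM in DMSO with TDP-43. It stood at 761, 738 and 706 CPM in C13 with sham, against 927, 763 and 1038 CPM in DMSO with sham. Its interaction was 0.46 (SE 0.26, edgeR adjusted p = 0.702). Of 29 genes of TDP-43 and related RNA-binding proteins, 14 were positive in total RNA. Mbnl1, a splicing regulator, had -0.70 (SE 0.24) and Elavl1, which stabilises AU-rich mRNAs, had -0.63 (SE 0.32). In nascent RNA only 5 of the 29 were positive (17.2%, against 52.2% of all genes), with a median of -0.89 against 0.09. At an unadjusted p under 0.05, 0 were positive there (against 4.63%) and 2 negative (6.9%, against 2.95%). Median nascent levels of the list, as log2(CPM + 0.5) relative to each gene's mean, were highest in the 2 libraries that lay apart. They were 0.87 in DMSO with TDP-43 replicate 3 and 0.56 in C13 with sham replicate 3, against -0.46 to 0.29 in the others.

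Antioxidant genes of the NRF2 pathway had C13 effects of the same sign in both arms for Hmox1 and Srxn1. Hmox1, haem oxygenase 1, stood at 811, 892 and 445 CPM in C13 with TDP-43, against 381, 414 and 392 CPM in DMSO with TDP-43. It stood at 640, 876 and 271 CPM in C13 with sham, against 299, 592 and 314 CPM in DMSO with sham. The C13 effect of Hmox1 was 0.86 with aggregates and 0.57 with sham, and the interaction 0.29 (SE 0.52). In nascent RNA the C13 effect of Hmox1 was 1.11 with aggregates and 1.07 with sham, an interaction of 0.04 (SE 0.67). That of Srxn1, sulfiredoxin, was 0.94 in each arm, with an SE of 0.65 for the difference. An SE of that size leaves room for an interaction in either direction. Of 28 NRF2 genes in total RNA, 16 were positive, with Me1 at 1.03 (SE 0.36), Pgd at 0.65 (SE 0.26) and Cat, catalase, at -0.75 (SE 0.34), or -0.47 without the 2 libraries apart. In nascent RNA Cat had the other sign, at 4.01 (SE 1.53).

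Nascent RNA gave larger and less certain values. Of 328 positive genes at an unadjusted p under 0.05, 304 were higher with C13 in the aggregate arm and lower with C13 in the sham arm, against 27.6% of all genes, and 201 of 209 negative genes had the reverse, against 25.1%. Within arms and at the same p, C13 was higher in 173 nascent genes with aggregates (2.44%) and lower in 152 (2.15%), and with sham it was higher in 175 (2.47%) and lower in 313 (4.42%). All 6 libraries of C13 with TDP-43 and DMSO with sham lay above the other 6 in 13 genes (0.184%) and below them in 10 (0.141%). C13 with sham was the farthest group in 159 of the 328 (48.5%, against 35.6% of all genes). Of the 328 positive genes, 67 had 0 nascent reads in all 3 libraries of C13 with sham, against 123 of all 7078 genes. The libraries of C13 with sham had 916, 960 and 1115 tested genes at 0 reads, against 116 to 464 in DMSO with sham. With aggregates there were 407 to 563 under C13, against 224 to 1379 under DMSO. The libraries of C13 with sham held 558608, 583141 and 786491 nascent reads, and the part of this depth in the positive values was not tested.

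Ss18, a subunit of BAF chromatin remodellers, had the second smallest p. In nascent RNA it stood at 293, 107 and 604 CPM in C13 with TDP-43, against 53.5, 13.1 and 30.8 CPM in DMSO with TDP-43. It stood at 74.4, 14.2 and 47.6 CPM in C13 with sham, against 762, 567 and 40.5 CPM in DMSO with sham. The aggregate groups were separate and the sham groups overlapped by 1 library of DMSO, with an interaction of 6.70 (SE 1.39, edgeR adjusted p = 0.445). Map4, a protein that stabilises microtubules, stood at 256, 300 and 319 CPM in C13 with TDP-43, against 248, 206 and 135 CPM in DMSO with TDP-43. It stood at 72.7, 44.2 and 9.92 CPM in C13 with sham, against 467, 292 and 379 CPM in DMSO with sham. All 6 libraries of C13 with TDP-43 and DMSO with sham lay above the others, mostly through the sham arm, at -3.16 against 0.57 with aggregates, and the interaction was 3.73 (SE 0.93, edgeR adjusted p = 0.445).

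Dtx2, a Deltex ubiquitin ligase, stood at 313, 282 and 324 CPM in C13 with TDP-43, against 20.1, 0 and 7.71 CPM in DMSO with TDP-43. It stood at 20.3, 14.2 and 198 CPM in C13 with sham, against 231, 59.5 and 516 CPM in DMSO with sham. The contrast lay mainly in the aggregate arm, with an interaction of 6.91 (SE 1.72, edgeR adjusted p = 0.445). All of its 12 counts were multiples of 4. Ppp5c, a phosphatase that works with HSP90, had 4, 32 and 93 nascent reads in C13 with TDP-43, against 0, 1 and 0 in DMSO with TDP-43. It had 8, 8 and 12 reads in C13 with sham, against 92, 59 and 123 in DMSO with sham, and no fold is given over a group with 1 read. Pot1a, which caps telomeres, likewise had 0, 1 and 0 reads in DMSO with TDP-43. Derl2, of the pathway that removes misfolded proteins from the endoplasmic reticulum, stood at 0, 3.54 and 1.98 CPM in C13 with sham, against 91.5, 69.7 and 201 CPM in DMSO with sham. In total RNA the interaction of Derl2 had the other sign, at -0.75. Nol4l had 74, 88 and 30 nascent reads in C13 with TDP-43, against 2, 2 and 2 in DMSO with TDP-43. It had 0, 0 and 4 reads in C13 with sham, against 70, 180 and 16 in DMSO with sham. All 6 libraries of its higher groups lay above the other 6, and since the lower groups are close to 0 no fold is given. Klhdc3, a substrate receptor of a ubiquitin ligase, had 114, 226 and 98 nascent reads in C13 with TDP-43 and 52, 26 and 40 in DMSO with TDP-43. It had 0 nascent reads in each library of C13 with sham, against 48, 74 and 128 in DMSO with sham, so no fold is given. Vps25, a subunit of the ESCRT-II sorting complex, and Plp2 were also at 0 in all libraries of C13 with sham.

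Of the negative nascent genes, Arpc4, a subunit of the actin-nucleating Arp2/3 complex, had groups that were separate in both arms. It stood at 386, 505 and 329 CPM in C13 with TDP-43, against 1151, 759 and 1511 CPM in DMSO with TDP-43. It stood at 1258, 1366 and 1127 CPM in C13 with sham, against 874, 490 and 832 CPM in DMSO with sham. C13 was the lower with aggregates and the higher with sham, and the interaction was -2.26 (SE 0.61, edgeR adjusted p = 0.489). Slc29a1, a transporter of nucleosides, stood at 309, 122 and 124 CPM in C13 with TDP-43, against 565, 459 and 1432 CPM in DMSO with TDP-43. It stood at 752, 724 and 240 CPM in C13 with sham, against 385, 442 and 310 CPM in DMSO with sham, where the groups overlapped, with an interaction of -2.74 (SE 0.84, edgeR adjusted p = 0.529).

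Atp5e, the epsilon subunit of ATP synthase, stood at 18.3, 8.10 and 7.25 CPM in nascent RNA of C13 with TDP-43, against 66.9, 92.9 and 272 CPM in DMSO with TDP-43. It stood at 171, 93.8 and 282 CPM in C13 with sham, against 157, 141 and 34.1 CPM in DMSO with sham. C13 with TDP-43 was below every other library, and the interaction was -4.39 (SE 1.24, edgeR adjusted p = 0.529). Fdxr, ferredoxin reductase, had -7.36 (SE 2.26), or -3.07 without the 2 libraries apart, which held its highest values of 160 and 113 CPM. Iqsec2, an exchange factor for ARF GTPases, had 4, 0 and 8 nascent reads in C13 with TDP-43, against 28, 168 and 4 in DMSO with TDP-43. It had 36, 52 and 204 in C13 with sham, against 4, 68 and 16 in DMSO with sham. Dhx30, a helicase of mitochondrial RNA granules, had 0, 16 and 8 in C13 with TDP-43, against 40, 704 and 8 in DMSO with TDP-43. It had 24, 120 and 0 in C13 with sham, against 8, 40 and 0 in DMSO with sham. Counts of Iqsec2 were multiples of 4 and those of Dhx30 of 8, and no fold is given for either. Zfyve21 stood at 0, 0 and 2.42 CPM in C13 with TDP-43, against 23.4, 10.5 and 158 CPM in DMSO with TDP-43. Rad9a, a DNA damage clamp subunit, and Pxk had 0 nascent reads in all libraries of C13 with TDP-43, and Nod2, a sensor of bacterial cell wall fragments, had 0 in all of DMSO with sham, so no fold is given.

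**Figure D5:**
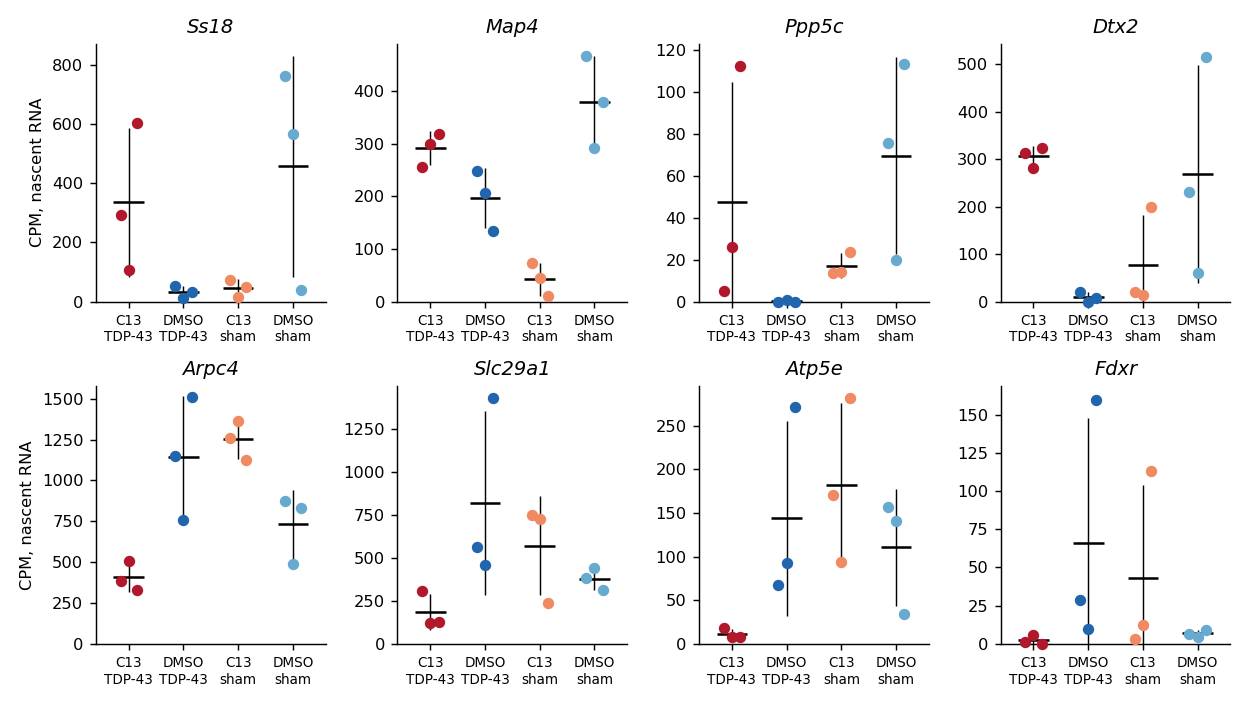
CPM in nascent RNA of 8 genes, with 1 point per library, the group mean as a horizontal bar and 1 SD as a vertical line cut at 0 (n = 3 per group). Ss18, Map4, Ppp5c and Dtx2 have higher means in C13 with TDP-43 and DMSO with sham, and Arpc4, Slc29a1, Atp5e and Fdxr have their lowest mean in C13 with TDP-43, such as 329 to 505 CPM for Arpc4.

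Lists of nascent RNA are read beside 52.2% positive genes and a median of 0.09 over all tested. Interferon effectors had 14 of 20 members positive and a median of 0.60 (0.30 to 1.84 over the alternatives), with 2 positive (10.0%, against 4.63% of all genes) and 0 negative (against 2.95%) at an unadjusted p under 0.05. Relative to their means, these genes stood at 0.78, 0.93 and 1.31 in C13 with TDP-43, against 0.74, 0.52 and 0.32 in DMSO with TDP-43, on the log2(CPM + 0.5) scale. They stood at -0.66, -0.82 and -1.47 in C13 with sham, against 0.35, -0.29 and 0.35 in DMSO with sham. C13 with TDP-43 was again highest and C13 with sham again lowest, each without overlap with its DMSO group. Nascent Isg15 stood at 366, 519 and 331 CPM in C13 with TDP-43, against 182, 158 and 266 CPM in DMSO with TDP-43. It stood at 62.5, 149 and 3.97 CPM in C13 with sham, against 162, 92.7 and 197 CPM in DMSO with sham, with an interaction of 2.07 (SE 1.14, edgeR adjusted p = 0.706). Dtx3l, a ubiquitin ligase of the interferon response, had 2.59 (SE 1.16). Nascent Rsad2 had -0.35, or 0.23 without the 2 libraries apart, and -0.72 to 0.10 with 1 library left out. Nascent Cxcl10 had 0.45 and Ifit1 0.75. Slfn8 had 0 nascent reads in all libraries of C13 with sham, so no fold is given. Irf7, a transcription factor of the response, likewise had 0 there but belongs to a separate list of IRF and STAT regulators. Of that list 11 of 20 were positive in nascent RNA, and 2 (10.0%) were positive and 0 negative at an unadjusted p under 0.05. Irf8 of that list had -1.91 (SE 1.16), or 0.18 without the 2 libraries apart. In total RNA 7 of the 23 tested members of that list were positive, with a median of -0.15. At that p, 0 were positive (against 4.94% of all genes) and 2 negative (8.7%, against 3.02%).

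Among NF-kB genes in nascent RNA 16 of 27 were positive. Cyld, a deubiquitinase that restrains NF-kB, stood at 838, 278 and 727 CPM in C13 with TDP-43, against 124, 45.8 and 170 CPM in DMSO with TDP-43. It stood at 757, 718 and 97.2 CPM in C13 with sham, against 537, 499 and 648 CPM in DMSO with sham, so that DMSO with TDP-43 had the lowest mean, with an interaction of 2.55 (SE 0.96, edgeR adjusted p = 0.559). Rela, the p65 subunit of NF-kB, stood at 73.3, 83.4 and 126 CPM in C13 with TDP-43, against 151, 92.9 and 9.64 CPM in DMSO with TDP-43. It stood at 3.38, 12.4 and 21.8 CPM in C13 with sham, against 124, 119 and 111 CPM in DMSO with sham, so that C13 with sham had the lowest mean, with an interaction of 3.39 (SE 1.38, edgeR adjusted p = 0.603). Genes of the mitochondrial genome had 5 of 15 positive in nascent RNA and a median of -1.07, which was 0.21 without the 2 libraries apart. Of 27 NRF2 genes 15 were positive, with Prdx6, a peroxidase, at 2.56 (SE 0.95) and all 6 libraries above all 6. Heat shock proteins had 13 of 25 members positive, ribosome biogenesis genes 20 of 41, and nuclear-encoded respiratory chain subunits 34 of 72. In that order, 4.0%, 0% and 2.78% were positive at an unadjusted p under 0.05 (against 4.63% of all genes). Negative at that p were 4.0%, 2.44% and 5.56% (against 2.95%), so their positive excess in total RNA was not seen in nascent RNA.

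The tables were set side by side over 7078 genes. Their interactions correlated at Pearson r = 0.303 and Spearman rho = 0.297 across genes, which are not independent and share libraries, and nascent reads are part of the total. With an unadjusted p under 0.05 in each table there were 58 positive genes, 31 negative and 3 of opposite sign, out of 537 in nascent RNA and 646 of the same genes in total RNA. Derl2, Cat and Senp7 were the 3, each positive in nascent and negative in total RNA, and Senp7 falls outside the rule for named genes. Whether nascent reads had another interaction than the other reads of a gene was tested in 1 fit with the library as a term. edgeR called 0 of 7078 genes (0%), with 273 positive (3.86%) and 101 negative (1.43%) at an unadjusted p under 0.05, and DESeq2 was not run on this test. Atp5e had a difference of -4.88 (SE 1.30) and Lrrc40, a leucine-rich repeat protein, -4.72 (SE 1.21). Nascent Lrrc40 stood at 50.1, 33.2 and 8.46 CPM in C13 with TDP-43, against 71.9, 20.9 and 40.5 CPM in DMSO with TDP-43. It stood at 342, 419 and 472 CPM in C13 with sham, against 39.6, 75.4 and 10.1 CPM in DMSO with sham, the one group that stood out.

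The nascent share of total reads was 2.99%, 3.30% and 2.44% in C13 with TDP-43, against 2.81%, 3.35% and 2.13% in DMSO with TDP-43. It was 3.20%, 2.85% and 1.88% in C13 with sham, against 3.40%, 7.11% and 2.74% in DMSO with sham. In DMSO with sham 2 libraries lay above the 9 libraries of the other groups, and the third lay among them. The interaction of the share was 1.91 percentage points (two-sided exact permutation test, p = 0.197), 0.57 without DMSO with sham replicate 2 and 2.75 without replicate 3 of that group (exact permutation p = 0.0374). Counts scaled within the nascent table do not carry this share. With total-table library sizes the median interaction over all nascent genes was 1.19 and not 0.09, and 579 genes were positive and 18 negative at an unadjusted p under 0.05, so the balance of signs in nascent RNA depends on the scaling.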

How the data were processed

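The authors deposited 2 tables of whole-number counts per gene, one of all reads and one of nascent reads, each with all 12 libraries; how nascent reads were told from others, and the strand setting, are not given in the labels used. Counts were used as deposited. Members and gene lists were chosen with earlier results of these data known. Genes kept by filterByExpr were fitted over the 4 groups with edgeR 4.0.16 (TMM scaling, quasi-likelihood test, Benjamini-Hochberg adjustment, threshold 0.05) in R 4.3.3. Shares were tested by exact permutation over libraries. Nascent and other reads were compared in 1 fit with a term per library. Named were, per table, the 10 genes of each sign with the smallest p among those with an assigned symbol whose highest group averaged 20 reads or more, up to 3 members per described list, 21 chosen genes, and 3 genes per direction for nascent against other reads; others are marked in the text. Alternatives were DESeq2 1.42.0, limma 3.58.1 voom with weights, other scalings and filters, a replicate block and left-out libraries, which include the 2 apart, chosen after seeing the data. The fit was tested on simulated counts that changed in C13 with TDP-43 only. The crossed pattern, the 2 libraries apart and the common factors of counts were not simulated. Libraries with the same replicate number correlated at -0.0292 to 0.126 in total and -0.0322 to 0.0585 in nascent RNA, so the numbers were not used to pair them. Of 9932 genes with a mean over 50 total reads, 1917 had counts that share a common factor, for which no reason is given in the sources used here. Counting error alone is covered by depth, and replicate error by the SEs. Of 30994 gene identifiers 30940 were in GENCODE M21 (GRCm38).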

Additional observations from a re-analysis of the deposited data

Results flagged for a closer look

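The share of mitochondrial ribosomal RNA in total reads moved with C13 in opposite directions in the 2 arms. The interaction was -2.088 percentage points (two-sided exact permutation test, p = 0.00216, the smallest the test can give with 12 libraries). With aggregates the mean was 1.45% ± 0.139 under C13, against 2.23% ± 0.453 under DMSO, and with sham it was 2.62% ± 0.972 under C13, against 1.32% ± 0.160 under DMSO (SD, n = 3 each). The share of all genes of the mitochondrial genome, of which these RNAs are the larger part, had an interaction of -2.11 points (exact permutation p = 0.00216). With 1 library left out the interactions ran from -2.498 to -1.551 and from -2.548 to -1.54. What moved these shares was not tested.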

How the results depend on the processing

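The count of genes called for the interaction in total RNA was 108 by DESeq2 and 4 by voom. By edgeR the count was 124 with no filter, 2 with the replicate block, 2 with counts divided by their common factor, and 0 to 3 with 1 library left out. In nascent RNA the count was 46 by DESeq2, and by edgeR it was 38 with no filter and 0 to 1 with 1 library left out. For nascent against other reads it was 1 with the filter of the total table. At an unadjusted p under 0.05, positive genes in total RNA numbered 941 with no filter. In nascent RNA they numbered 661 with no filter and 579 with library sizes of the total table, and 296 to 554 with 1 library left out. Negative genes there numbered 139 with the replicate block, 18 with library sizes of the total table, 118 without the 2 libraries apart and 132 to 264 with 1 library left out. The interaction of the nascent share ran from 0.571 to 2.752. The 20 genes of smallest p per table kept their sign in 380 values of total and 398 of nascent RNA. Among the other named genes the sign turned in total RNA for Mok (2.86 by voom, -2.54 to 1.78 with 1 library left out), Mff (-0.143 to 0.174), Hmox1 (-0.0494 without the 2 apart, -0.106 to 0.679) and Cxcl2 (-0.322 to 0.0596). In nascent RNA it turned for Irf8 (0.0191 with library sizes of the total table, 0.179 without the 2 apart), Hmox1 (-0.0878 by voom, -0.117 without the 2 apart, -0.242 to 0.658), Srxn1 (-0.00137 with the replicate block, -0.166 to 0.257), Rsad2 (0.789 with library sizes of the total table, 0.229 without the 2 apart, -0.717 to 0.0994), Ifit1 (-0.307 without the 2 apart), Cxcl2 (0.46 with library sizes of the total table, -0.792 to 0.0575), Tnf (-0.29 to 0.618) and Cxcl10 (-1.43 to 4.04). The causes were not tested. Fits without a library leave 2 in its group. Nascent depth limits low genes.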
